A study of Mus musculus with 19 samples.

Results

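The C-type lectin and Siglec receptor genes were described across RNA sequencing libraries of cells sorted from mouse cochleae (the cochlea is the part of the inner ear that senses sound). Members were the rows of the gene table whose symbol was Clec followed by a number and letters, or began with Siglec, with Clec7a, Siglech and Siglec1 left out. This gave 29 of 18639 genes, 26 of them Clec and 3 Siglec genes. The rule reads only the symbols. The study compared GFP-positive cells (macrophages) with GFP-negative cells (nonmacrophages), and old with young adult mice. All animals carried the CX3CR1 GFP/+ genotype, a heterozygous knock-in, in which 1 allele of the fractalkine receptor gene carries GFP, so no group had 2 intact copies of that gene. The whole cochlea gave 4 old macrophage libraries (12-14 months), 2 young macrophage libraries (1.5 months), 4 old nonmacrophage libraries and 4 young nonmacrophage libraries. Young mice also gave 1 macrophage and 1 nonmacrophage library each from the auditory nerve and the lateral wall, and 1 library of unsorted whole cochlea. Each isolate came from 1 mouse, per the labels' protocol. GFP marks any cell that uses the Cx3cr1 promoter, so a GFP-positive sort is defined by that promoter and not by a set of macrophage proteins.

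C-type lectin receptors sit on myeloid cells and bind sugars, lipids or dying cells through a lectin-like domain. Some signal through the adaptors FcRγ (Fcer1g) or DAP12 (Tyrobp), which recruit the kinase Syk and, further on, Card9. Others carry an inhibitory motif (ITIM) that recruits phosphatases such as SHP-1 (Ptpn6). Siglecs bind sialic acids, the end sugars of most cell surface glycans, and most of them also carry ITIMs. Clec2 proteins are ligands of the NKR-P1 receptors (Klrb1) of natural killer cells. Several other Clec genes encode secreted, endothelial or intracellular proteins that share only the lectin-like fold or the name. In the cochlea, resident macrophages lie in the auditory nerve, in the lateral wall with the stria vascularis, and beside the sensory epithelium.

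Of the 29 genes, 18 lie on mouse chromosome 6, and 9 Clec4 genes there form 1 block from Clec4a1 to Clec4e (chr6:122921848-123289870, mm10, 368 kb). RefSeq promoters (GRCm38.p6, 250 bases before to 50 after a start) were found for 23 of the 29 genes. They were searched on both strands for GAGGAAG, a purine-rich core of the PU.1 site used in myeloid cells, for the C/EBP palindrome TTGCGCAA and for the AP-1 site TGAGTCA. The letters of these motifs do not overlap one another in the promoters printed. GAGGAAG was found in 10 of the 23 genes (43.5%) and in 13.6% of all 32851 promoters. TTGCGCAA was found in 1 member, Clec12a (4.35%), and in 0.183% of all promoters. TGAGTCA was found in 3 members (13.0%) and in 5.2% of all promoters. A member counted if any of its promoters held the motif, while the shares of all promoters count single promoters, so the units differ. Promoters are printed for 4 receptors of the macrophage sort that hold a GAGGAAG match within 100 bases of the start, and for the 2 genes with the largest fold decrease of the mean in old relative to young macrophages. Each is written 5′ to 3′ on the gene's strand, with a match on either strand in capitals.
Clec5a (chr6:40585756-40586055, minus strand, 2 GAGGAAG matches at -82 and -56, both on the opposite strand as CTTCCTC): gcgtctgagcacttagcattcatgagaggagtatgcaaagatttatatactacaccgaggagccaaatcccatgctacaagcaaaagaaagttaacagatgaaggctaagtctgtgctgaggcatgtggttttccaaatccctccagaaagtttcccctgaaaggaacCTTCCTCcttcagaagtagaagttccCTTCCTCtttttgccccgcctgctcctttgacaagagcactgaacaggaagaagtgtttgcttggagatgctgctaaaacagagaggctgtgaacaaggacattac
Siglece (chr7:43660112-43660411, minus strand, 2 GAGGAAG matches at -88 and -37, both on the opposite strand): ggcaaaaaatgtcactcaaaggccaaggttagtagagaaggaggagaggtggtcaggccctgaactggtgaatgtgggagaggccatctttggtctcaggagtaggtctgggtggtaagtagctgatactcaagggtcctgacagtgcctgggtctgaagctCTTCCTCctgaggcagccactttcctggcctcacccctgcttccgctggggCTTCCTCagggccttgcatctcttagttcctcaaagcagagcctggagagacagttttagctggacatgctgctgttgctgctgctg
Clec12a (chr6:129349994-129350293, plus strand, TTGCGCAA at -140 and GAGGAAG at -61): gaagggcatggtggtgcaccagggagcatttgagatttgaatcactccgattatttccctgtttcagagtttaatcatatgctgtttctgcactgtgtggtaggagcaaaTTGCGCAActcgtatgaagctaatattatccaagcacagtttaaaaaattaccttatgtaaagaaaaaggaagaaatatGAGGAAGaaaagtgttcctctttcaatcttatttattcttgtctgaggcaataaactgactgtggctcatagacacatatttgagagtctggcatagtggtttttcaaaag
Siglecf (chr7:43351091-43351390, plus strand, GAGGAAG at -66 on the opposite strand): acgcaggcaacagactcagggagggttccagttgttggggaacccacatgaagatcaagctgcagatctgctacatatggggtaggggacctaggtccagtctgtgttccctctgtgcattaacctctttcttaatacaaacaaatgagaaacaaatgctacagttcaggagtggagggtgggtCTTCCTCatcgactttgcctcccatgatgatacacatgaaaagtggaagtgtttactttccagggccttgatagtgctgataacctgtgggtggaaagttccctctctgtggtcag
Clec4b1 (chr6:123049712-123050011, plus strand, none of the 3 motifs): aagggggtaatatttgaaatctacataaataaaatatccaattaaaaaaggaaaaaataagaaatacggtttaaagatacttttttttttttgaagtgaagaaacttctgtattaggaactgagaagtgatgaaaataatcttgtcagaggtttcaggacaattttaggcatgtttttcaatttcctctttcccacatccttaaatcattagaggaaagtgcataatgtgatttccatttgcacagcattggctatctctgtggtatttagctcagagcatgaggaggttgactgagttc
Clec4a2 (chr6:123122440-123122739, plus strand, TGAGTCA at 31 after the start on the opposite strand as TGACTCA): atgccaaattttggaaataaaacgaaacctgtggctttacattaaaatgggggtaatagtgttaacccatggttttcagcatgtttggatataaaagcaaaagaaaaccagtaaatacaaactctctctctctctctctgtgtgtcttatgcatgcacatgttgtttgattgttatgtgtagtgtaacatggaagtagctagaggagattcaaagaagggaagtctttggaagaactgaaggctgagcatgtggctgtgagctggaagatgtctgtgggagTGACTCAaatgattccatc

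Values are normalized reads, that is, reads of a gene divided by a factor of its library, and are given in the order of replicates 1, 7, 12 and 17 (old macrophages), 9 and 15 (young macrophages), 10, 11, 18 and 19 (old nonmacrophages) and 2, 5, 6 and 14 (young nonmacrophages). Old macrophage libraries held 50.6 to 71.6 M reads and the 2 young ones 25.4 and 35.1 M reads. Old nonmacrophage libraries held 51.2 to 64.4 M reads and young nonmacrophage libraries 24.9 to 60.2 M reads, so old libraries were mostly deeper than young ones. A count of 0 allows a level of up to 3 reads, worth 1.38 to 5.33 normalized reads depending on the library. Young macrophage replicate 9 stood apart, with reads in only 11652 genes, against 13532 in replicate 15 and 16750 to 17282 in old macrophages. The sum of 8 macrophage markers (Cx3cr1, Csf1r, C1qa, C1qb, Adgre1, Aif1, Cd68 and Mertk) was 130640 to 219148 in old macrophages, 474657 and 653154 in young macrophages, 2747 to 3731 in old nonmacrophages and 1796 to 2568 in young nonmacrophages. The macrophage label thus had its markers at every age, with none of the 8 at 0 in any whole-cochlea library. In these bulk samples, fewer cells of a type and less RNA per cell cannot be told apart.

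Most lectin receptors of myeloid cells were higher in the macrophage sort than in the nonmacrophage sort at both ages. The genes called were tested with limma on log2(normalized reads + 1) over all genes, at an adjusted p under 0.05, and a difference on that scale understates the change of low genes. Of the 29 members 28 passed the filter on low values, all except Clec4g. In the old cochlea 13 members rose and 2 fell in macrophages relative to nonmacrophages, where 18.6% of all genes were called (9.25% higher, 9.36% lower). In the young cochlea 11 rose and 2 fell, where 31.5% of all genes were called (9.18% higher, 22.3% lower). With library quality weights 0 of the 13 young calls were kept, where 3.12% of all genes were called, and with only the groups compared 7 were kept, where 8.68% were. The median log2 difference of the 28 members was 3.09 in the old and 1.38 in the young cochlea, against -0.192 and -0.611 over all genes. Between old and young macrophages 1 member fell and 0 rose, where 29.7% of all genes were called. In the Clec4 block, 6 of the 9 genes rose in macrophages at each age.

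**Figure D1:**
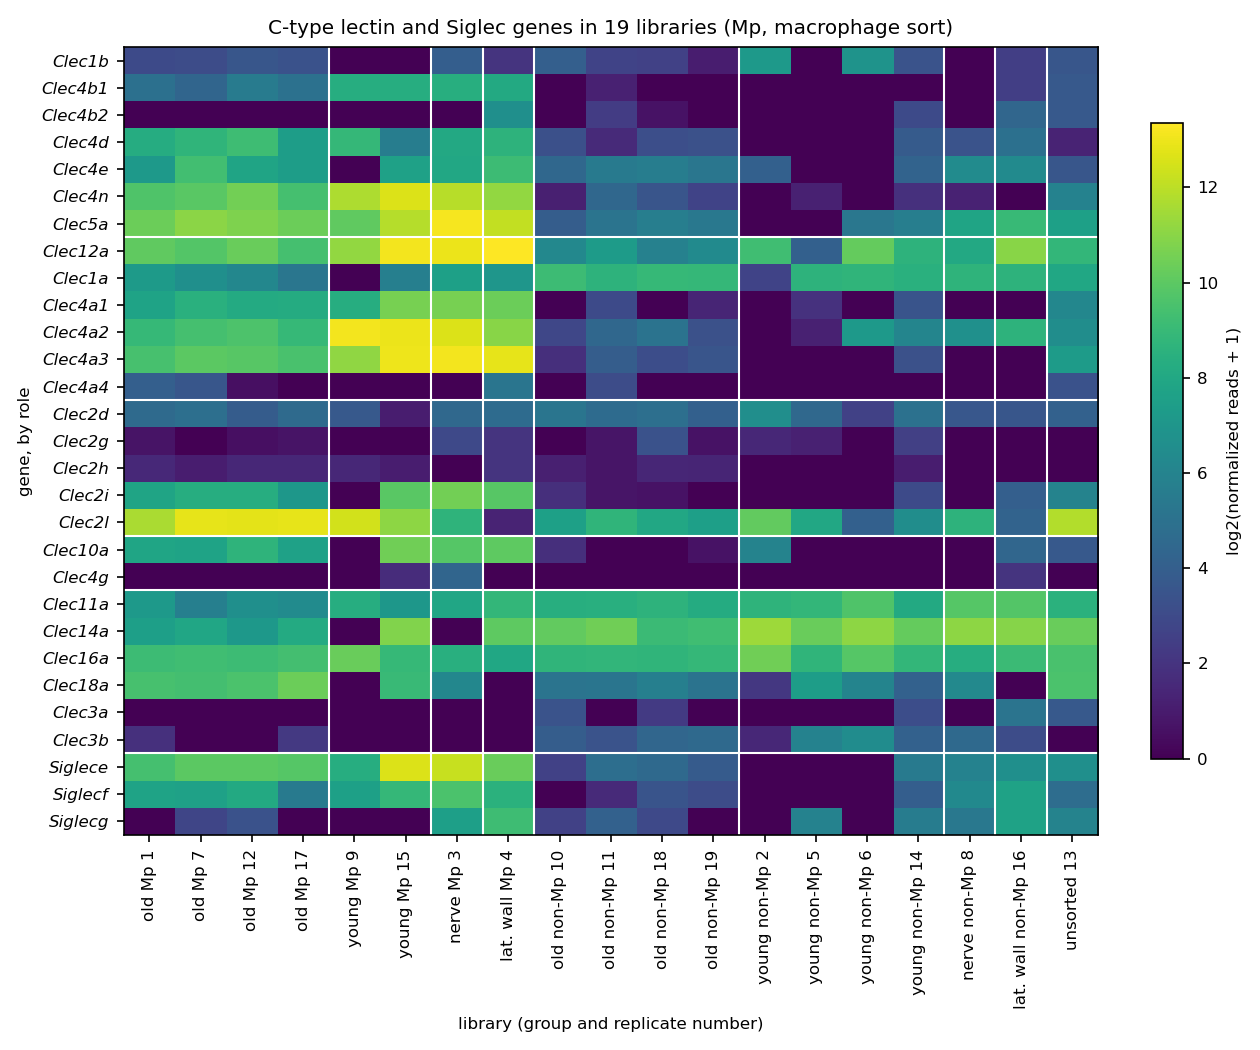
Heat map of log2(normalized reads + 1) for the 29 genes (rows, grouped by role) in the 19 libraries (columns, by group and replicate number; Mp, macrophage sort). Clec4n, Clec5a, Clec4a2, Clec4a3, Clec12a and Siglece are bright in the macrophage columns, while Clec11a, Clec14a and Clec1a are brighter in the old nonmacrophage than in the old macrophage columns.

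Activating receptors formed the first group, with 7 members tested. In macrophages relative to nonmacrophages 4 of them rose at each age, namely Clec4n, Clec4b1, Clec4d and Clec5a. The median of the group was a log2 difference of 4.64 in the old and 6.31 in the young cochlea.

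Clec4n encodes Dectin-2, a receptor for fungal mannans that pairs with FcRγ. It had 811, 993, 1469 and 671 normalized reads in old macrophages and 3333 and 6435 in young macrophages. It had 1.23, 21.3, 10.6 and 5.49 in old nonmacrophages and 0, 1.36, 0 and 2.67 in young nonmacrophages. Every macrophage library lay above every nonmacrophage library. In limma the log2 difference between macrophages and nonmacrophages was 6.92 in the old cochlea (SE 0.77, adjusted p = 5.63e-05) and 11.40 in the young cochlea (SE 0.94, adjusted p = 1.09e-06).

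Clec4b1 encodes DCAR, a mouse receptor of the same block that signals through FcRγ and binds mycobacterial lipids. It had 29.5, 19.6, 45.2 and 30.5 normalized reads in old macrophages and 323 and 314 in young macrophages. In old nonmacrophages it had 0, 1.38, 0 and 0, and in all 4 young nonmacrophage libraries 0. Libraries of 1 group lay close together, and the macrophages did not overlap the nonmacrophages. The log2 difference between macrophages and nonmacrophages was 4.64 in the old cochlea (SE 0.50, limma adjusted p = 4.21e-05) and 8.32 in the young cochlea (SE 0.61, limma adjusted p = 3.97e-07). Against the limit of 3 reads per library, the young difference was at least 80.0-fold. Of the 50-base windows in its exons 8.68% also occur in other genes, mainly Clec4a2, so a part of the reads could be shared.

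Clec5a encodes MDL-1, which pairs with DAP12. It had 1320.2, 2121, 1756 and 1313 normalized reads in old macrophages and 1078 and 3685 in young macrophages. It had 14.1, 34.4, 51.7 and 39.5 in old nonmacrophages and 0, 0, 37.5 and 51.9 in young nonmacrophages. All macrophage libraries were above all nonmacrophage libraries of the whole cochlea. The mean was 46.6-fold higher in old macrophages than in old nonmacrophages (limma adjusted p = 0.00623), and 107-fold higher in young macrophages than in young nonmacrophages (limma adjusted p = 0.00102).

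Clec4d encodes MCL, which forms a complex with Mincle and binds a mycobacterial cord lipid. It had 311, 419.5, 587 and 173 normalized reads in old macrophages and 472 and 49.7 in young macrophages. It had 8.61, 2.06, 8.34 and 8.78 in old nonmacrophages, and only replicate 14 of the young nonmacrophages had reads, at 13.4. The 2 young macrophage libraries differed widely, but both lay above all nonmacrophages. The log2 difference was 5.56 in the old cochlea (SE 1.00, limma adjusted p = 0.0018) and 6.31 in the young cochlea (SE 1.22, limma adjusted p = 0.00165). Clec4e, which encodes Mincle, had 145, 640.5, 219.8 and 174 in old macrophages, 0 and 199.8 in young macrophages, 20.9, 42, 50 and 36.2 in old nonmacrophages and 16, 0, 0 and 18.2 in young nonmacrophages. Old macrophages did not overlap old nonmacrophages for Clec4e, but the difference did not pass the test (log2 2.74, SE 1.47, limma adjusted p = 0.234). It did with quantile normalization, quality weights, a pseudocount of 10 and only the groups compared.

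The other activating members were low. Clec1b, the podoplanin receptor CLEC-2 of platelets, was at 7.06 to 11.1 normalized reads in old macrophages and at 0 in both young ones, against 1.1 to 15.4 in old and 0 to 149 in young nonmacrophages. Its exons overlap those of Clec9a on the same strand, so its reads cannot be assigned with certainty. Clec4b2 had reads in only 6 of 19 libraries, with a highest value of 99.6 in the lateral wall macrophages.

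The group of DCIR receptors and other inhibitory-type receptors followed the same pattern, with 4 of 6 tested members rising in macrophages at each age. Whether each of them carries an ITIM was not checked, so the name of the group does not show that each is inhibitory. The 4 were Clec4a1, Clec4a2, Clec4a3 and Clec12a. The group's median log2 difference was 4.37 in the old and 6.12 in the young cochlea.

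Clec4a2 encodes DCIR1, the mouse counterpart of human DCIR, which carries an ITIM and restrains dendritic cells. It had 486, 669, 777 and 491 normalized reads in old macrophages and 9043 and 7931 in young macrophages. It had 6.15, 20.6, 32.8 and 8.78 in old nonmacrophages and 0, 1.36, 145 and 65.8 in young nonmacrophages. The young macrophages stood far above the old ones, and both above all whole-cochlea nonmacrophages. The log2 difference between macrophages and nonmacrophages was 5.31 in the old cochlea (SE 1.32, limma adjusted p = 0.0137) and 9.42 in the young cochlea (SE 1.62, limma adjusted p = 0.000686). The exons of Clec4a2 share 6.83% of their 50-base windows with other genes, including Clec4a4 and Clec4b1.

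Clec4a3 encodes DCIR3, a close relative. It had 715, 1002, 937 and 726 normalized reads in old macrophages and 2236 and 8129.5 in young macrophages. It had 2.46, 14.5, 7.79 and 10.4 in old nonmacrophages, and only replicate 14 of the young nonmacrophages had reads, at 9.09. The separation from nonmacrophages was complete at both ages, with a log2 difference of 6.61 in the old cochlea (SE 0.84, limma adjusted p = 0.00016) and 11.22 in the young cochlea (SE 1.03, limma adjusted p = 2.86e-06).

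Clec4a1 encodes DCIR4. It had 214, 353, 288 and 301 normalized reads in old macrophages and 319 and 1564 in young macrophages. It had 0, 6.88, 0 and 1.65 in old nonmacrophages and 0, 2.72, 0 and 10.2 in young nonmacrophages. Old macrophages were even and overlapped the lower of the 2 young macrophage libraries. The mean was 135-fold higher in old macrophages than in old nonmacrophages (limma adjusted p = 0.00023). In the young cochlea, where the nonmacrophage mean was within the limit of 3 reads, the log2 difference was 8.12 (SE 1.16, limma adjusted p = 0.000149).

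Clec12a encodes MICL, an ITIM receptor that senses uric acid crystals from dead cells. It had 1072, 872, 1259 and 693 normalized reads in old macrophages and 2356 and 9032 in young macrophages. It had 74.4, 157, 56.7 and 83.9 in old nonmacrophages and 619, 16.3, 1165 and 399 in young nonmacrophages. Macrophages lay above the nonmacrophages of their own age, and 1 young nonmacrophage library reached the level of old macrophages. The mean was 10.5-fold higher in old macrophages than in old nonmacrophages (limma adjusted p = 0.0335), and 10.4-fold higher in young macrophages than in young nonmacrophages (limma adjusted p = 0.0256). The old call was lost when any 1 of the 8 old libraries was left out, with the log2 difference between 3.24 and 3.73 and adjusted p values up to 0.088 over all fits that left out 1 library. The young call was lost without young macrophage replicate 15. Markers of monocytes and neutrophils also had reads in the nonmacrophage sort, with sums of 1671 to 9127 in old and 99.4 to 38036 in young nonmacrophages, and their part in the Clec12a reads there was not tested.

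The remaining 2 members of this group did not rise. Clec4a4, which encodes DCIR2 of a dendritic cell subset, had 15.4, 10.9, 0.461 and 0 in old macrophages, 0 in both young macrophages, and reads in 1 of the 8 whole-cochlea nonmacrophage libraries, at 7.57. It shares 15.7% of its 50-base windows with Clec4a2. Clec1a, a receptor for a fungal melanin that is also made by endothelial cells, had 156, 101, 72.3 and 36.6 in old macrophages and 0 and 54.2 in young macrophages, against 571, 399, 490.5 and 471 in old and 5.33, 395, 426 and 358 in young nonmacrophages. Old macrophages lay below all old nonmacrophages, although the difference was not called (log2 -2.56, SE 1.39, limma adjusted p = 0.242). It was called with quantile normalization, quality weights and only the groups compared.

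Siglece and Siglecf, both ITIM receptors, rose in macrophages at each age, and Siglecg did not. Siglece is the mouse counterpart of human Siglec-9 on neutrophils, monocytes and macrophages. It had 681, 1019, 1024 and 902 normalized reads in old macrophages and 319 and 6399 in young macrophages. It had 4.92, 27.5, 22.8 and 13.2 in old nonmacrophages and 0, 0, 0 and 44.4 in young nonmacrophages. Old macrophages were tight and lay between the 2 young libraries, which were far apart. The log2 difference between macrophages and nonmacrophages was 5.86 in the old cochlea (SE 1.25, limma adjusted p = 0.00566) and 9.11 in the young cochlea (SE 1.53, limma adjusted p = 0.000575).

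Siglecf marks eosinophils and alveolar macrophages in the mouse. It had 217, 197, 275 and 43.9 normalized reads in old macrophages and 191 and 469 in young macrophages. It had 0, 2.06, 10 and 7.68 in old nonmacrophages and 0, 0, 0 and 15 in young nonmacrophages. Macrophage libraries were above nonmacrophage libraries of the whole cochlea throughout, with old replicate 17 the lowest of them. The mean was 37.1-fold higher in old macrophages than in old nonmacrophages (limma adjusted p = 0.00477), and the log2 difference was 7.23 in the young cochlea (SE 1.32, limma adjusted p = 0.0011). The 4 eosinophil and mast cell markers in the table summed to 20.1 to 43.0 in old and 31.6 to 553 in young macrophages, and 2 or more of the 4 were at 0 in each of these libraries. Siglecg, a B cell inhibitor, was at 0 in 4 of the 6 whole-cochlea macrophage libraries and no higher than 9.21 in the other two.

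**Figure D2:**
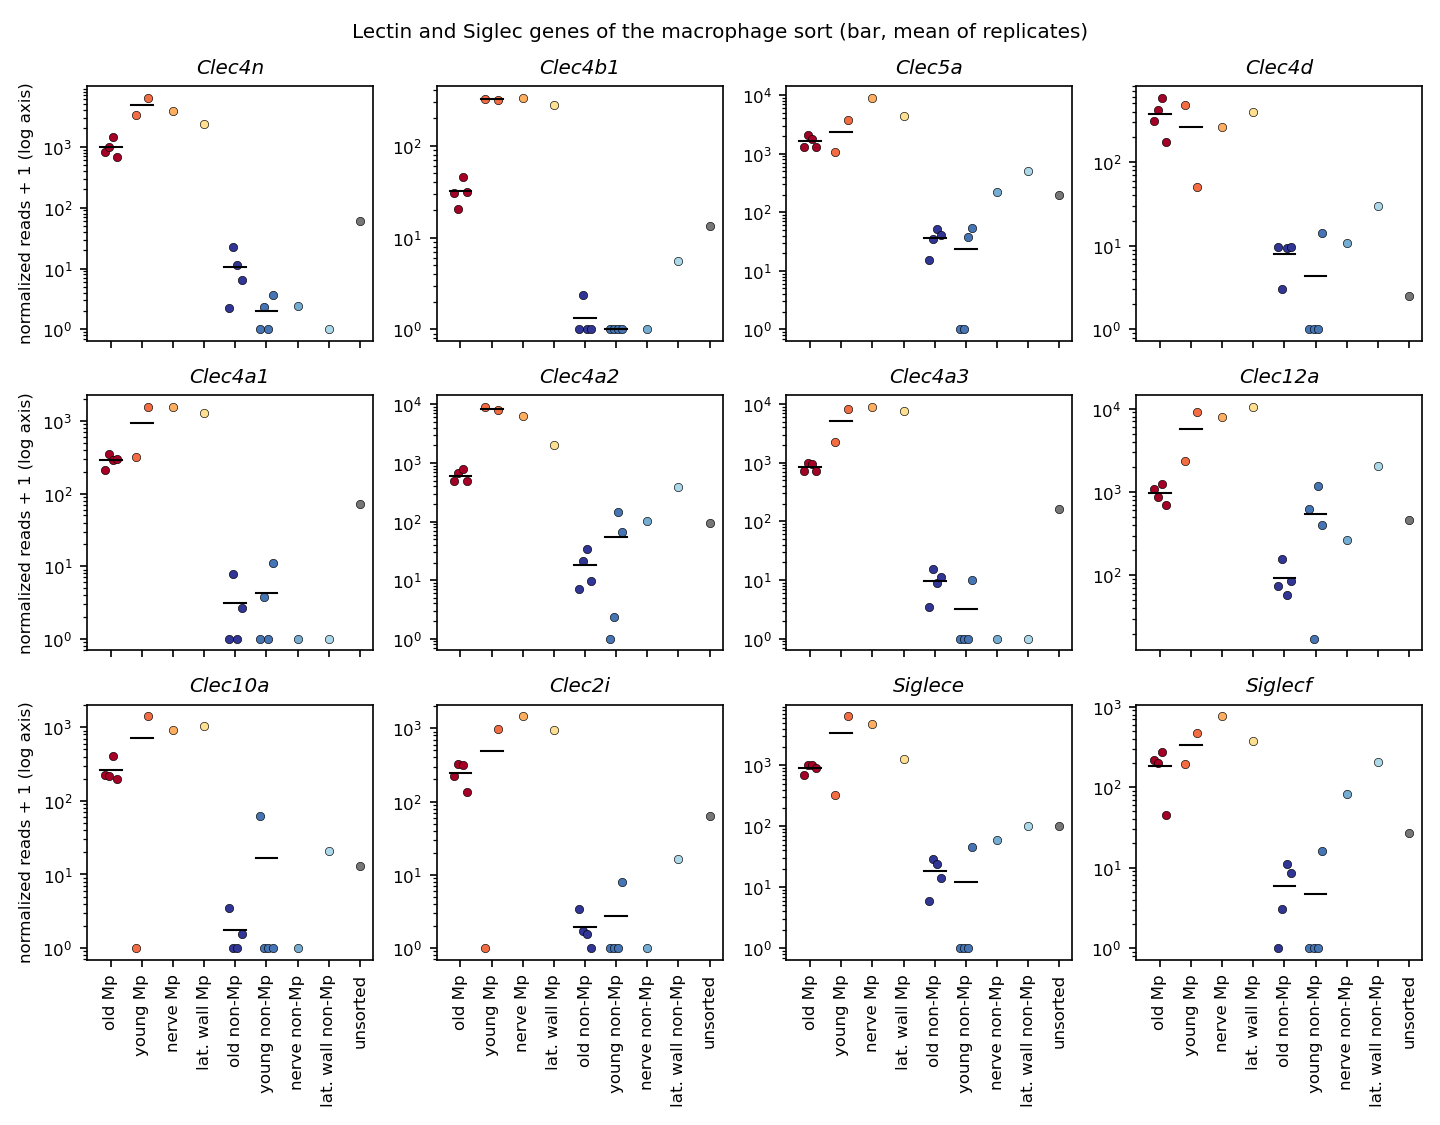
Normalized reads + 1 (log axis) of 12 genes in every library, by group (Mp, macrophage sort; points, libraries; bars, means of groups with replicates). For Clec4a2, Clec4b1, Clec4a3, Clec4n and Clec12a every old macrophage library lies below all 4 young macrophage libraries.

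Clec10a, the galactose-type lectin MGL1 of macrophages, had 227, 217, 411 and 196 normalized reads in old macrophages and 0 and 1411 in young macrophages. It had 2.46, 0, 0 and 0.549 in old nonmacrophages and 62.2, 0, 0 and 0 in young nonmacrophages. Clec10a rose in old macrophages relative to old nonmacrophages, whose mean was within the limit of 3 reads (log2 7.37, SE 1.86, limma adjusted p = 0.0143). In the young cochlea the 2 macrophage libraries disagreed completely, at 0 and 1411, and the difference was not called (log2 3.74, SE 2.28, limma adjusted p = 0.228). Without young macrophage replicate 9 it was called. Its exons share 9.02% of their 50-base windows with other genes, mainly the related lectin Mgl2. Clec4g, a sinusoidal endothelial lectin, was the member below the filter, with reads in 3 of 19 libraries and a highest value of 19.8 in the auditory nerve macrophages.

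In the Clec2 family, 2 of 5 tested members rose in old macrophages and 1 in young macrophages. Clec2i, a ligand of the NKR-P1 family in the mouse, had 220.0, 321, 315 and 135 normalized reads in old macrophages and 0 and 987 in young macrophages. It had 2.46, 0.688, 0.556 and 0 in old nonmacrophages and 0, 0, 0 and 6.95 in young nonmacrophages. Like Clec10a, it was 0 in young macrophage replicate 9 and high in replicate 15. Clec2i rose in old macrophages (log2 7.08, SE 1.57, limma adjusted p = 0.00699) and was not called in the young cochlea (log2 4.23, SE 1.92, limma adjusted p = 0.109), where it was called without replicate 9.

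Clec2l, known in humans as the brain-associated lectin BACL, had the highest level of the 29 genes per kb of exon in old macrophages, at 4402 ± 1409 normalized reads per kb (SD, n = 4). The next in level were Clec4n at 694 ± 245 and Clec4a3 at 637 ± 110 normalized reads per kb, which did not differ beyond their spread. Clec2l had 3272, 7422, 7145 and 7306 normalized reads in old macrophages and 5575 and 2188 in young macrophages. It had 188, 426, 252 and 187 in old nonmacrophages and 1125, 259, 16.3 and 92.5 in young nonmacrophages. It rose in macrophages in the old cochlea (log2 4.58, SE 0.95, limma adjusted p = 0.00459) and in the young cochlea (log2 4.57, SE 1.16, limma adjusted p = 0.00966). Neuronal markers were also higher in the macrophage sort. The 6 neuron markers summed to 243863 to 312460 in old macrophages and 141178 and 225368 in young macrophages, against 7879 to 13960 in old and 5087 to 29008 in young nonmacrophages. In the lateral wall macrophages, where 3 of the 6 neuron markers (Nefl, Nefm and Tubb3) were at 0 and the sum was 12.3, Clec2l had 1.53 normalized reads. In the auditory nerve macrophages the neuron sum was 33618 and Clec2l had 416, and in unsorted cochlea they were 213512 and 3570.3. The part of neurons in the Clec2l reads was not tested. With the auditory nerve and lateral wall libraries pooled into the groups, neither call of Clec2l was kept, and the young call was also lost without young macrophage replicate 9 (limma adjusted p = 0.067).

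The other Clec2 members were low. Clec2d, the ligand of the inhibitory receptor NKR-P1B, stayed between 1.13 and 94.2 normalized reads in the 14 sorted whole-cochlea libraries, and Clec2g and Clec2h did not exceed 9.45 in them.

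**Figure D3:**
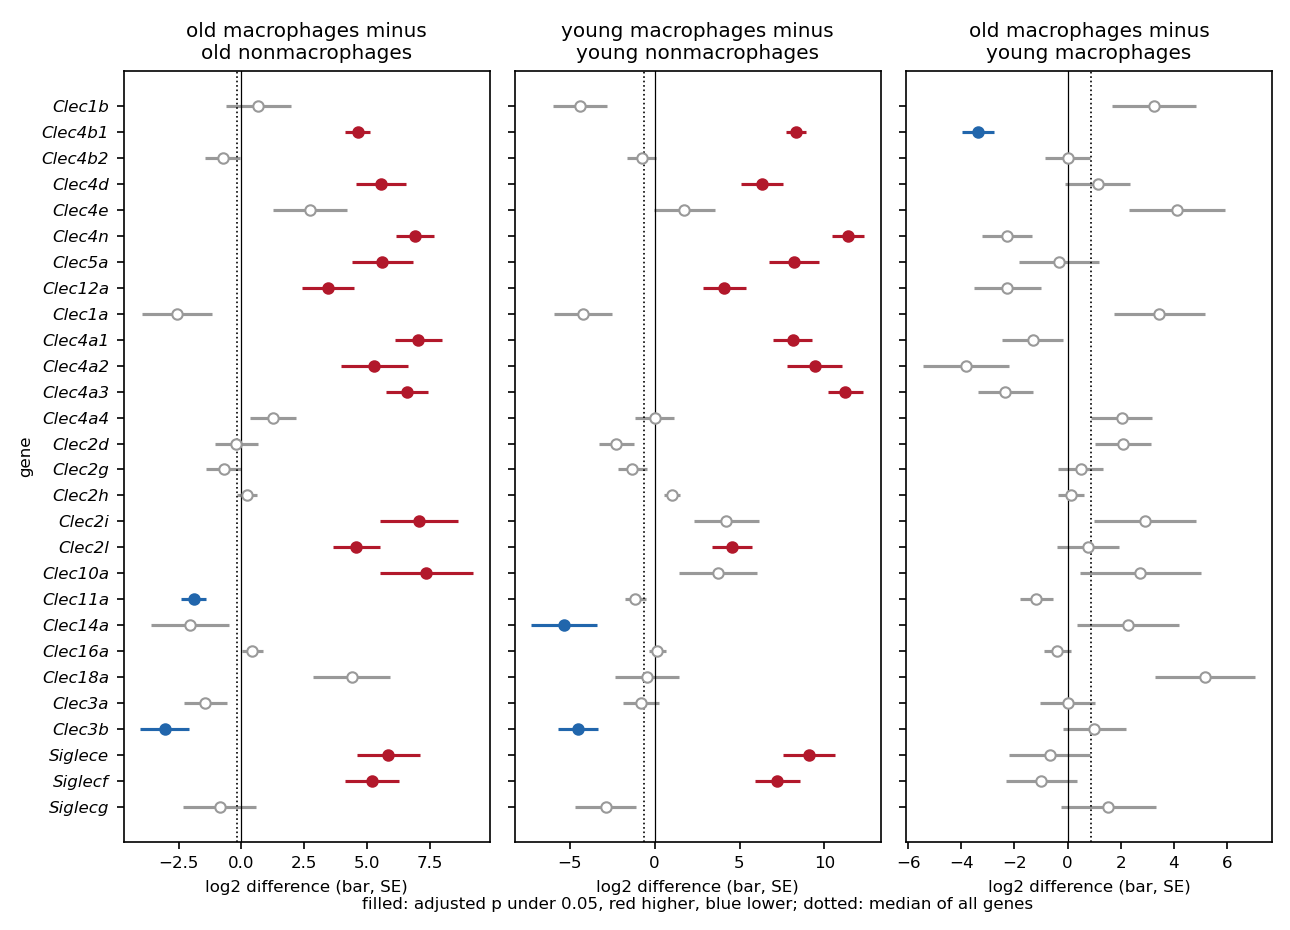
Log2 difference with its SE (limma) for the 28 tested genes in 3 comparisons. Filled red points were called higher and filled blue points lower, and the dotted line is the median of all genes. The 13 and 11 red points of the first and second panels lie between 3.44 and 11.40, and the third panel has 1 filled point, Clec4b1.

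Of the 6 members that encode secreted, endothelial or intracellular proteins, Clec11a and Clec3b fell in old macrophages (9.36% of all genes fell), Clec14a and Clec3b fell in young macrophages (22.3% of all genes fell), and 0 rose at either age. Clec11a encodes osteolectin, a secreted factor that promotes bone formation. It had 143, 52.8, 100.4 and 86.6 normalized reads in old macrophages and 316 and 132 in young macrophages. It had 329, 344, 393 and 294 in old nonmacrophages and 414, 452, 817 and 272 in young nonmacrophages. Clec11a fell in old macrophages relative to old nonmacrophages (log2 -1.90, SE 0.51, limma adjusted p = 0.0191), and the call held in 10 of the 14 fits that left out 1 library, not without old macrophage replicate 7 or old nonmacrophage replicate 10, 11 or 18 (adjusted p up to 0.063). Osteoblast markers were also lower in the old macrophage sort, with sums of 1113 to 3470.5 in old macrophages against 7890 to 11327 in old nonmacrophages, and their part was not tested.

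Clec3b, the plasminogen-binding protein tetranectin, had 2.57, 0, 0 and 3.66 normalized reads in old macrophages and 0 in both young macrophages. It had 14.1, 9.63, 20 and 22.5 in old nonmacrophages and 1.78, 59.9, 88.1 and 16.6 in young nonmacrophages. All macrophage libraries, those of nerve and lateral wall included, were below all nonmacrophage libraries of their age, although the lowest nonmacrophage value, 1.78, is within the limit of 3 reads. Clec3b fell in macrophages in the old cochlea (log2 -3.06, SE 0.97, limma adjusted p = 0.0442) and in the young cochlea (log2 -4.50, SE 1.19, limma adjusted p = 0.0122). The old call was lost with quantile normalization, a pseudocount of 10 and edgeR, held in 7 of the 14 fits that left out 1 library, with adjusted p up to 0.13, and was lost without any 1 of old macrophage replicates 1, 7 and 12 or of the 4 old nonmacrophage replicates. The young call was lost without young macrophage replicate 9 (adjusted p = 0.052).

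Clec14a encodes an endothelial membrane protein of growing vessels. It had 187, 236, 139 and 287 normalized reads in old macrophages and 0 and 1833 in young macrophages. It had 1127, 1397, 546 and 606 in old nonmacrophages and 2739.8, 1248, 2189.6 and 1184 in young nonmacrophages. Old macrophages were below all old nonmacrophages, but that difference was not called (log2 -2.04, SE 1.57, limma adjusted p = 0.435). It was called without young macrophage replicate 9 or 15, with quality weights and with only the groups compared. The young difference was called (log2 -5.33, SE 1.92, limma adjusted p = 0.0496), and rested on the 0 of replicate 9: without it the log2 difference was 0.09. The call held in 1 of the 14 fits that left out 1 library, the one without young macrophage replicate 15. The 6 endothelial markers summed to 2024 to 4136 in old macrophages and 13131 and 21379 in young macrophages, against 11794 to 23939 in old and 20250 to 49465 in young nonmacrophages, and their part was not tested.

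Clec18a, whose human relatives are secreted and bind polysaccharides, had 698, 651, 772 and 1319 normalized reads in old macrophages and 0 and 520.4 in young macrophages. It had 34.4, 35.1, 53.4 and 33.5 in old nonmacrophages and 3.56, 173, 63.6 and 16.6 in young nonmacrophages. Old macrophages lay above every sorted library of the other groups, yet the difference from old nonmacrophages was not called (log2 4.39, SE 1.55, limma adjusted p = 0.0666). It was called without young macrophage replicate 9 or 15, with quantile normalization, quality weights, a pseudocount of 10, only the groups compared, edgeR, DESeq2, and nerve and lateral wall as the only young macrophages. Clec18a was at 0 in both lateral wall libraries and at 757 in unsorted cochlea, and the part of the neuron markers was not tested. Clec16a, an intracellular regulator of mitophagy, stayed within 569.5 to 661 in old macrophages, 492 to 1255 in young macrophages, 427 to 469 in old nonmacrophages and 425 to 1387 in young nonmacrophages. Clec3a, a cartilage protein, was at 0 in all macrophage libraries and at most 33.6 in any other.

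**Figure D4:**
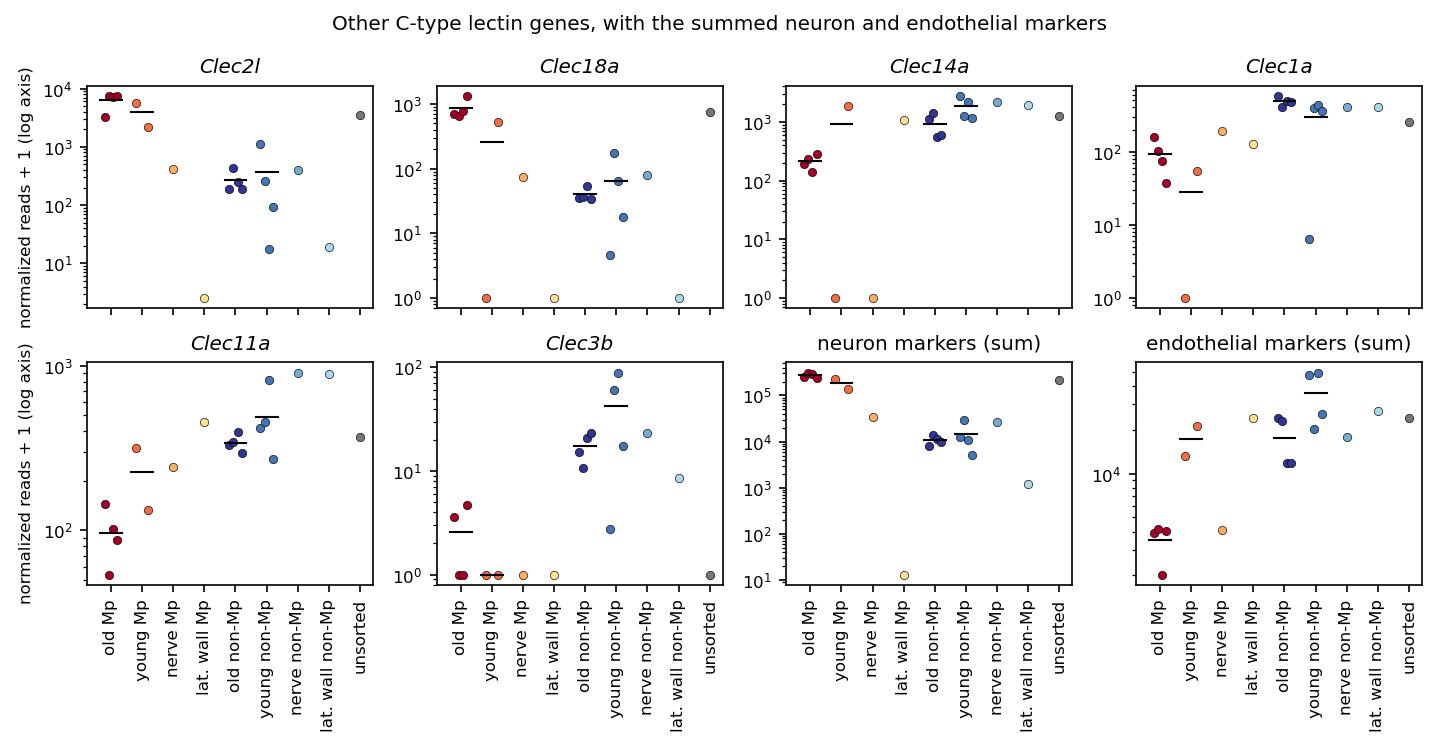
Normalized reads + 1 (log axis) of 6 genes outside the myeloid receptor groups, and the sums of 6 neuron and 6 endothelial markers, in every library by group (bars, means of groups with replicates). Clec2l is lowest in the lateral wall macrophages, where Clec18a is at 0 and the neuron sum is 12.3.

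Comparing all 4 old macrophage libraries with the 4 old nonmacrophage libraries, 16 members did not overlap and were higher (23.3% of all genes) and 4 were lower (30% of all genes). With the auditory nerve and lateral wall libraries included, 9 members were higher in all 4 young macrophage libraries than in all 6 young nonmacrophage libraries (4.59% of all genes). They were Clec4n, Clec4b1, Clec4d, Clec5a, Clec4a1, Clec4a2, Clec4a3, Clec12a and Siglece. Clec3b was the 1 member lower throughout (6.3% of all genes). Siglecf left this set through the lateral wall nonmacrophages, at 206, which exceeded young macrophage replicate 9 at 191.

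The age comparison asked which genes differed between old and young macrophages. Clec4b1 fell in old macrophages, and 4 more receptors, Clec4a2, Clec4a3, Clec4n and Clec12a, were lower in every old macrophage library than in every young one without passing the test. No member rose in the fit to all 14 libraries. Without young macrophage replicate 15, 6 of 28 did (Clec2i, Clec10a, Clec4e, Clec18a, Clec14a and Clec1a), where 35.2% of all genes rose. All 6 were at 0 in young macrophage replicate 9, the only young macrophage library left in that fit. These 6 calls thus rest on 1 library and do not show a rise with age. In replicate 15, Clec10a, Clec2i and Clec14a lay above every old macrophage library, while Clec4e, Clec18a and Clec1a did not. At an unadjusted p under 0.05 in limma, 2 members were higher in old macrophages (Clec18a and Clec4e), both at 0 in young macrophage replicate 9. Members lower at that p included Clec4b1, Clec4a2 and Clec4n. Over all genes, 7991 of 18441 had such a p in either direction, and how many of them were higher was not counted. For higher calls edgeR gave 0 members, where 2976 of 17126 genes rose. DESeq2 gave 1 (Clec1b), where 3964 of 18639 genes rose. Over all genes 24.1% rose and 5.57% fell in old macrophages, and the median log2 difference was 0.885 over all genes and 0.31 over the 28 members. Quantile normalization moved the median of all genes to -0.066, and 8 members fell under it, Clec4b1 (log2 -4.95) among them, where 12.3% of all genes fell. Clec2h, Clec3a and Clec4b2 were also among the 8, although their means were within the limit of 3 reads in macrophages of both ages.

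The mean of Clec4b1 was 10.2-fold lower in old than in young macrophages (31.2 ± 10.5 in old, n = 4, against 318 ± 6.45 in young, n = 2, SD). The log2 difference was -3.37 (SE 0.61, limma adjusted p = 0.00129). The call held in each of the 14 fits that left out 1 library, where the log2 difference lay between -3.56 and -3.17. It was not kept with edgeR (log2 -3.18, adjusted p = 0.0534), with library quality weights (adjusted p = 0.754), or relative to the macrophage markers (log2 -2.08, adjusted p = 0.0843), among 13 other settings. Of the 50-base windows of Clec4b1 8.68% also occur in Clec4a2, whose mean was also lower in old macrophages. The part of shared reads in the Clec4b1 difference was not tested.

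Clec4a2 had the largest fold, a mean 14.0-fold lower in old macrophages, but a wide error (log2 -3.83, SE 1.62, limma adjusted p = 0.0889). The mean of Clec4a3 was 6.14-fold lower (log2 -2.35, SE 1.03, limma adjusted p = 0.0985), that of Clec12a 5.85-fold lower (log2 -2.28, SE 1.26, limma adjusted p = 0.182) and that of Clec4n 4.95-fold lower (log2 -2.29, SE 0.94, limma adjusted p = 0.0801). These errors come from the spread of all 4 groups. When limma was fitted to the 6 macrophage libraries alone, the log2 differences were the same and all 4 were called, with adjusted p = 0.000945 for Clec4a2, 0.0259 for Clec4a3, 0.0366 for Clec12a and 0.0131 for Clec4n, where 6.2% of all genes fell. DESeq2 on the recovered reads also called all 4 (10.3% of all genes fell). Of the 4, edgeR called Clec4a2 (adjusted p = 0.0354), where 5.17% of all genes fell. It called neither Clec4a3 (0.0538) nor Clec12a (0.0774), and Clec4n missed its threshold narrowly.

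The order of old below young held for these 5 genes against the 2 whole-cochlea young macrophage libraries (5 of 28, where 13.4% of all genes did so). It also held against all 4 young macrophage libraries, nerve and lateral wall included (the same 5 genes, where 7.27% of all genes did so). In the opposite direction Clec18a was higher in all old than in all 4 young macrophage libraries (15.2% of all genes did so). Against the 2 whole-cochlea libraries alone, Clec18a, Clec1b and Clec2d were higher in all old ones (31.7% of all genes), and Clec1b was at 0 in both young libraries. The other receptors of the macrophage sort overlapped between ages. Their mean was 3.71-fold lower in old macrophages for Siglece (limma adjusted p = 0.765), 1.8-fold lower for Siglecf (0.594) and 1.46-fold lower for Clec5a (0.895). The mean of Clec4a1 was 3.26-fold lower in old macrophages (limma adjusted p = 0.405), that of Clec10a 2.69-fold lower and that of Clec2i 1.99-fold lower. For Clec10a and Clec2i, at 0 in young replicate 9, the log2 difference had the other sign (2.74, limma adjusted p = 0.374, and 2.90, limma adjusted p = 0.263). In the opposite direction the mean was 2.95-fold higher in old macrophages for Clec4e (limma adjusted p = 0.0978), 1.43-fold higher for Clec4d (0.499) and 1.62-fold higher for Clec2l.

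Macrophage marker genes were lower too. Their sum was 130640 to 219148 in old macrophages, against 474657 and 653154 in young macrophages, with a median log2 difference of -1.5 and 0 of the 8 called. Per 1000 normalized reads of these markers, Clec4a2 was at 2.93 to 3.94 in old macrophages and at 5.89 to 19.1 in the 4 young macrophage libraries. Clec4b1 was at 0.0894 to 0.233 in old and 0.343 to 0.805 in young macrophages on the same scale, so neither gene overlapped. Clec4a3, Clec4n and Clec12a overlapped on this scale, with Clec4a3 at 4.30 to 5.55 in old and 4.71 to 22.0 in young macrophages. Clec4d went the other way, at 1.33 to 2.97 in old and 0.0761 to 1.16 in young macrophages. Clec16a, Clec18a, Clec1b and Clec2l also lay above all young macrophage libraries on this scale. How many of all genes did not overlap on it was not counted. Centring on these markers moved the median log2 difference of all genes to 2.35, so most genes shift upward in old macrophages on such a scale. Limma on values centred on these markers called Clec4a2 lower (log2 -2.55, SE 0.40, adjusted p = 0.0035), where 0.506% of all genes were lower. It also called 5 members higher, namely Clec2l, Clec18a, Clec2d, Clec1a and Clec1b, where 44.9% of all genes were higher, so the direction of these counts depends on the scaling.

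Markers of other cell types also differed between old and young macrophages, where 24.1% of all genes rose and 5.57% fell. The 8 T and NK cell markers summed to 50.04 to 144 in old macrophages, against 2546 and 10909 in young macrophages, and 5 of them fell (Cd2, Gzma, Gzmb, Cd3g and Nkg7). The 6 dendritic cell markers summed to 1692 to 3144 in old and 240.5 and 514.8 in young macrophages, and Flt3, Itgax and Zbtb46 rose. Of these 6, 0 or 1 were at 0 in old and 1 or 3 in young macrophages. Osteoclast markers rose in 3 of 5, with sums of 130.5 to 1636 in old and 0 and 571 in young macrophages, which overlap. Supporting cell markers rose in 5 of 6, with sums of 11215 to 15433 in old and 2957 and 8517 in young macrophages. The part of these cells in the age differences of the receptors was not tested.

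**Figure D5:**
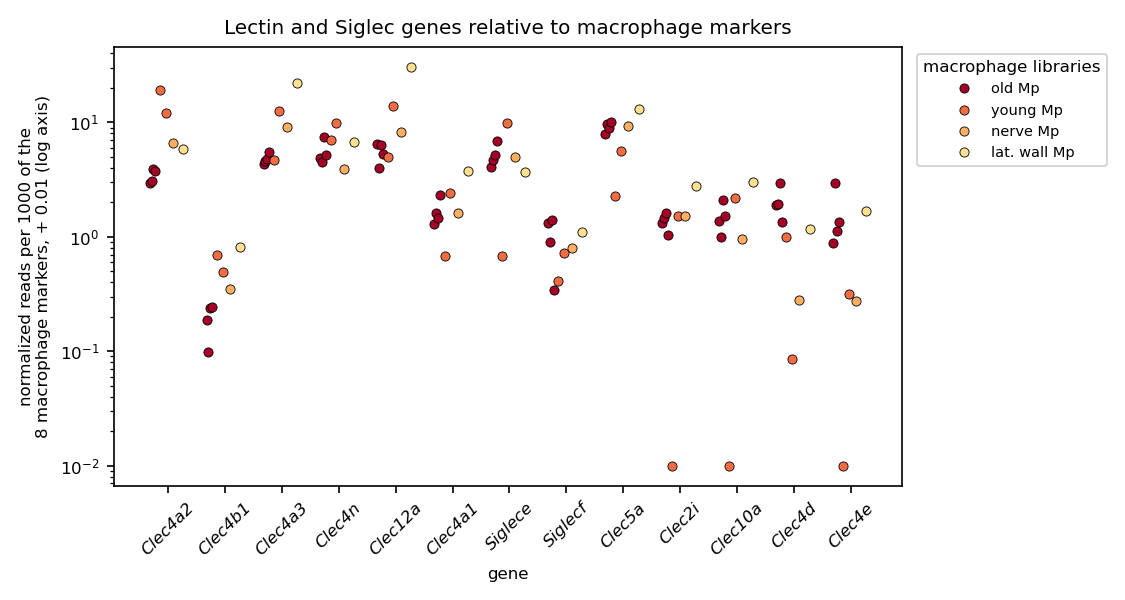
Normalized reads of 13 genes per 1000 normalized reads of 8 macrophage markers, plus 0.01 (log axis), in each macrophage library (colours, group). Of all members, drawn or not, Clec4a2 and Clec4b1 lie below all 4 young libraries in old macrophages. Clec4d, Clec16a, Clec18a, Clec1b and Clec2l lie above them. How many of all genes do so was not counted.

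Among nonmacrophages 0 members rose and 0 fell with age by limma at the adjusted threshold, where 1.72% of all genes were called (1.64% higher, 0.0813% lower). At an unadjusted p under 0.05, 3 members differed, all of them higher in old nonmacrophages, where 4262 of 18441 genes had such a p. DESeq2 called 1 higher (Clec4n), where 525 of 18639 genes were higher, and 1 lower (Clec12a), where 1145 were lower. With edgeR 0 members were called, where 3 of 17126 genes were. Without young nonmacrophage replicate 14, limma called 5 members higher (Clec4n, Clec4a3, Siglece, Clec4d and Clec2h), where 12.3% of all genes were higher, and without replicate 5 it called Clec12a lower. The difference in age effect between macrophages and nonmacrophages was called for 2 members, both lower, where 7.94% of all genes were called (6.98% higher, 0.954% lower). It was -4.48 on the log2 scale for Clec4n (SE 1.21, limma adjusted p = 0.0378) and -3.68 for Clec4b1 (SE 0.78, limma adjusted p = 0.00911). For Clec4a3 it was -4.61 (SE 1.33, limma adjusted p = 0.0511). Clec4b1 was within the limit of 3 reads in nonmacrophages of both ages, so its value there measures no age difference and the -3.68 largely restates the -3.37 of the macrophages. Clec4n differed by 2.19 between old and young nonmacrophages, where its young mean was within that limit, and by -2.29 between old and young macrophages. The Clec4b1 call held in all 14 fits that left out 1 library and was lost in 5 of 11 other settings, namely quality weights, a pseudocount of 0.1, pooled tissues, edgeR and DESeq2 (adjusted p up to 1.0). The Clec4n call was lost in 4 of the 11 and held in 6 of the 14, and was lost without any 1 of the 4 old macrophage replicates, young macrophage replicate 15, or old nonmacrophage replicate 11, 18 or 19 (adjusted p up to 0.082).

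The auditory nerve and lateral wall gave 1 library per sort, with no replicate check and so no test. The macrophage libraries of both tissues had reads of the myeloid lectins. Clec5a lay above both young whole-cochlea macrophage libraries in each tissue, while Clec4a2 in each and Clec4n in the lateral wall lay below both. Clec4a3 had 8906 normalized reads in nerve and 7528 in lateral wall macrophages, and was at 0 in both matching nonmacrophage libraries. Clec4n had 3806 in nerve and 2328 in lateral wall macrophages, against 1.40 and 0 in their nonmacrophages. Clec5a had 9058 in nerve and 4440.1 in lateral wall macrophages, against 221 and 503 in their nonmacrophages. Clec12a was at 7961 in nerve and 10452 in lateral wall macrophages, against 262 and 2035 in their nonmacrophages. Clec4b1 was at 334 in nerve and 276 in lateral wall macrophages, against 323 and 314 in young whole-cochlea macrophages.

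Values of some members lay apart between the 2 tissues. Clec4a2 had 6412 normalized reads in nerve and 2017 in lateral wall macrophages, and Siglece 4824 and 1259. Siglecg was at 187 in nerve and 599 in lateral wall macrophages, far above the 0 to 9.21 of the whole-cochlea macrophages, and at 39.2 and 205 in their nonmacrophages. Clec14a was at 0 in nerve and 1064 in lateral wall macrophages, where the endothelial sums were 4095 and 24289. Monocyte and neutrophil markers summed to 21594 in nerve and 46517 in lateral wall macrophages, and to 42422 and 96903 in their nonmacrophages, against 431 to 3712 in old and 444 to 5947 in young whole-cochlea macrophages. Their part in the Clec12a, Clec5a and Siglecf reads of these libraries was not tested.

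Most genes of the signalling partners rose in the sort, from a list of the adaptors and enzymes known downstream of these receptors. Of 12 genes of the activating adaptor and Syk-Card9 route, 8 rose and 0 fell in old macrophages (median 3.45 on the log2 scale), and 9 rose and 0 fell in young macrophages (median 3.16). Over all genes 9.25% rose and 9.36% fell in old macrophages, and 9.18% rose and 22.3% fell in young macrophages. Fcer1g, the FcRγ adaptor, rose by 6.19 (SE 0.72, limma adjusted p = 8.08e-05) in the old and by 7.60 (SE 0.88, limma adjusted p = 2.54e-05) in the young cochlea on the log2 scale. Between old and young macrophages 2 of the 12 fell, Tyrobp (log2 -2.91, SE 0.98, limma adjusted p = 0.0403) and Bcl10 (log2 -1.02, SE 0.22, limma adjusted p = 0.00396), where 5.57% of all genes fell. Fcer1g was not called there (log2 -2.34, SE 0.88, limma adjusted p = 0.0604). Of 3 phosphatases recruited by ITIMs, Ptpn6 rose in macrophages at both ages (log2 3.30 in the old, limma adjusted p = 0.00089, and 4.98 in the young cochlea, limma adjusted p = 7.46e-05). Inpp5d rose in the old cochlea, and Ptpn11, which is made by most cells, fell at both ages.

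Ligands and their makers had calls in both directions. Of 17 tested genes of sialic acid synthesis and transfer, whose products Siglecs bind, 5 rose and 1 fell in old macrophages and 5 rose and 2 fell in young macrophages. Over all genes 9.25% rose and 9.36% fell in old macrophages, and 9.18% rose and 22.3% fell in young macrophages. Between old and young macrophages St6galnac4 (log2 -1.34, SE 0.39, limma adjusted p = 0.022) and St3gal6 (log2 -1.45, SE 0.31, limma adjusted p = 0.00381) fell, and 0 rose, where 5.57% of all genes fell and 24.1% rose. Podoplanin (Pdpn), the ligand of CLEC-2, fell in macrophages at both ages (log2 -1.96 in the old, limma adjusted p = 0.0023, and -2.78 in the young cochlea, limma adjusted p = 0.000375). Of 12 related lectins outside the Clec and Siglec names, 9 rose and 2 fell in old macrophages and 7 rose and 1 fell in young macrophages, beside the same shares of all genes. Among them the mannose receptor Mrc1 and Cd209f were highest in difference, and Cd209b was the one that rose in old relative to young macrophages (log2 5.47, SE 1.04, limma adjusted p = 0.00199).

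In the authors' deposited table, 26 of the 29 members had an adjusted p. The authors' deposited table listed 13 of these higher and 5 lower in young macrophages than in young nonmacrophages at an adjusted p under 0.05 (13.3% and 27.1% of all genes with an adjusted p). For old against young macrophages the authors' deposited table listed 1 member higher (Clec1b) and 5 lower, which were Clec4a2, Clec4b1, Clec4a3, Clec4n and Clec12a, the 5 genes that did not overlap (23.3% of all genes higher and 10.5% lower).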

How the data were processed

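The series held 19 RNA sequencing libraries, and the labels gave every one a group. Sorting was by GFP, and each isolate came from 1 mouse. RNA of low quality was excluded and some libraries were sequenced again, per the labels' protocols. The submitters' processing notes name mm10, TopHat2, Partek and DESeq2, without versions, role or order. The deposited values were a signal per gene and library, each a whole number of reads scaled by a factor particular to the library. Also deposited were the authors' p-values, step-up adjusted p-values (other) and signed fold changes (score) for 2 comparisons.

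The reads behind the values were recovered from their step size, and 99.89% of values above 0 came out whole within 0.1 read. The factors lay within 0.087% of DESeq2's own. All replicate pairs differed by more than sampling noise (chi-square over degrees of freedom between 48.7 and 884.1). Limits of 3 reads cover counting error only. Whether reads were counted by strand is not given in the sources used here.

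The main test was limma 3.58.1 (R 4.3.3) on log2(value + 1), with its variance trend and robust settings, with a mean for each of the 4 groups of sorted whole cochlea (14 libraries). Of 18639 genes, 18441 reached a value of 1 in 2 or more libraries and were tested. Benjamini-Hochberg adjustment ran over all of these, with a threshold of 0.05. The design had named limma for normalized values. Members called in at least 1 of 5 contrasts with a group mean of at least 20 were given library by library, which were 16, and the others by range. The members and the gene lists were chosen with earlier results of these data known.

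Other settings were quantile normalization, a common total, quality weights, pseudocounts of 0.1 and 10, no filter or a filter of 10, fits of the groups compared alone, pooled nerve and lateral wall libraries, each library left out, edgeR 4.0.16 and DESeq2 1.42.0 on the recovered reads. Centring on the macrophage markers, and nerve and lateral wall as the only young macrophages, were chosen after the data were seen. edgeR's quasi-likelihood test called 3089 genes for the sort in old mice and 5073 in young mice, 3861 for age in macrophages, 3 for age in nonmacrophages and 1653 for the difference in age effect. Simulated counts with 200 changed genes were used to test the limma fit. Gene positions came from GENCODE M21 (mm10) and promoters from RefSeq (GRCm38.p6).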

Additional observations from a re-analysis of the deposited data

Results flagged for a closer look

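In groups of 4 libraries with a mean of at least 20 normalized reads, 43 groups of a member were examined and 5 had 1 library far from the others. Chance gives about 1 in 20 such groups. Clec10a in old macrophages was highest in replicate 12, at 411 normalized reads, with the others at 196 to 227. Clec4e in old macrophages was highest in replicate 7, at 640.5, with the others at 145 to 219.8. Clec2l in old macrophages was lowest in replicate 1, at 3272, with the others at 7145 to 7422. Clec18a in old nonmacrophages was highest in replicate 18, at 53.4, with the others at 33.5 to 35.1. Clec1a in young nonmacrophages was lowest in replicate 2, at 5.33, with the others at 358 to 426.

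The difference in age effect between macrophages and nonmacrophages passed limma's test for Clec4n (log2 -4.48, adjusted p = 0.0378) and for Clec4b1 (log2 -3.68, adjusted p = 0.00911). Clec4b1 was within the limit of 3 reads in nonmacrophages of both ages, so its value largely restates the macrophage difference. The mean of Clec4n was within that limit in young nonmacrophages.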

How the results depend on the processing

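No paired analysis was run. Each replicate number was used for only 1 library, so the numbers cannot show which sorts came from the same mouse. In the old sort the calls of Clec4n, Clec4a3, Clec4b1, Clec4a1, Clec2i, Siglecf and Clec4d held in the 14 fits that left out 1 library and in 12 other settings, and those of Siglece and Clec10a in all of these that gave an adjusted p (DESeq2 gave none). Leaving out 1 library gave 12 to 14 members higher and 0 to 3 lower in old macrophages than in old nonmacrophages, 10 to 14 higher and 1 to 4 lower in the young sort, 0 to 6 higher and 1 to 2 lower between old and young macrophages, 0 to 5 higher and 0 to 1 lower between old and young nonmacrophages, and 0 to 4 higher and 1 to 3 lower for the difference in age effect. Where 1 young macrophage library was left, it was assumed to vary like the other groups. On the log2 scale the young sort difference lay between -10.75 without young macrophage replicate 15 and 0.088 without replicate 9 for Clec14a, and between -4.95 and 4.08 for Clec18a in the same order. The age difference of Clec14a in macrophages was 7.69 without replicate 15 and -3.15 without replicate 9.

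Brackets give the genes called the same way among all genes fitted. Members lower in the old sort numbered 4 with quality weights (6422 of 18441) and 4 with only the groups compared (6108 of 18272). They numbered 1 with a pseudocount of 10 (2047 of 18441) and 1 with edgeR (1270 of 17126). Members higher in the young sort numbered 0 with quality weights (33 of 18441) and 7 with only the groups compared (341 of 16435). Those lower numbered 0 with quantile normalization (2797 of 18441), quality weights (542 of 18441) and only the groups compared (1085 of 16435). They numbered 1 with a pseudocount of 10 (3736 of 18441), 1 with no filter (4106 of 18618) and 4 with DESeq2 (4640 of 18639). The quality weights were 1.44 to 4.50 in old macrophages and 0.067 in both young macrophages, 3.72 to 7.45 in old nonmacrophages and 0.179 to 0.626 in young nonmacrophages.

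Brackets again give the genes called the same way among all genes fitted. Between old and young macrophages 1 member was higher with a common total (5365 of 18445) or a pseudocount of 0.1 (4771 of 18441). Only the groups compared (3214 of 17206), pooled libraries (2648 of 18519) and DESeq2 (3964 of 18639) also gave 1. Relative to the macrophage markers 5 were higher (7729 of 17206). With nerve and lateral wall as the only young macrophages 2 were higher (3642 of 18459). Members lower between old and young macrophages numbered 8 with quantile normalization (2277 of 18441) and 0 with quality weights (0 of 18441). A pseudocount of 10 gave 4 (1073 of 18441), and only the groups compared gave 5 (1067 of 17206). Pooled libraries gave 2 (773 of 18519) and DESeq2 gave 6 (1913 of 18639). With nerve and lateral wall as the only young macrophages 4 were lower (1870 of 18459). Between old and young nonmacrophages DESeq2 called 1 higher (525 of 18639) and 1 lower (1145 of 18639). For the difference in age effect DESeq2 called 1 higher (2432 of 18639). Nerve and lateral wall as the only young macrophages gave 3 higher (2350 of 18459). Lower calls numbered 1 with a common total (106 of 18445) and 0 with quality weights (0 of 18441). They numbered 0 with a pseudocount of 0.1 (184 of 18441) and 1 with edgeR (119 of 17126). The causes were not tested.

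Quantile normalization moved the median log2 age difference of all genes in macrophages to -0.066, with 2292 genes higher and 2277 lower, against 0.885, 4441 and 1027 in the main test. Under it Clec2d was -2.96, Clec2h -4.88, Clec3a -2.13 and Clec4b2 -2.13. Clec3a and Clec4b2 were at 0 and Clec2h at no more than 1.92 normalized reads in all 6 of these libraries. A common total moved that median to 1.15, and centring on the macrophage markers to 2.35. With nerve and lateral wall as the only young macrophages, the young sort difference was -1.27 for Clec16a, -2.18 for Clec2l and 5.52 for Siglecg, and the age difference of Siglecg -6.85. The difference in age effect was not run with only the groups compared, since it needs all 4. Differences of members under 5.33 normalized reads were not detectable in every library.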
